A study of Mus musculus with 4 samples.

Results

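Endothelial cells, which line blood vessels, were examined among the liver mononuclear cells of C57BL/6 mice by single-cell RNA sequencing (scRNA-seq). The mice were 8 to 10 weeks old, and each of 4 conditions was measured in 1 library. Naïve mice received no concanavalin A (ConA), a plant lectin that activates T cells and injures the liver. The other groups received ConA, followed by corn oil vehicle (ConA+Veh), TCDD (ConA+TCDD) or FICZ (ConA+FICZ). Livers of the 3 ConA groups were taken 24 hours after ConA, dissociated with enzymes and spun on Percoll, a step that enriches leukocytes and leaves few endothelial cells. TCDD, a persistent dioxin, and FICZ, a short-lived tryptophan derivative, are ligands of the aryl hydrocarbon receptor (AhR), a transcription factor. The dose and the time of FICZ were not given in the sources used here. The number of mice behind each library was not given in the sources used here, so with 1 library per condition the treatment, the mice and the library cannot be told apart, and no test between conditions was possible.

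A cell was taken as endothelial when at least 3 of 11 endothelial genes (*Kdr*, *Ptprb*, *Egfl7*, *Cdh5*, *Pecam1*, *Eng*, *Gpihbp1*, *Clec4g*, *Stab2*, *Oit3* and *Fabp4*) had a UMI, a unique molecular identifier that marks 1 captured mRNA. Cells with any UMI of the T cell genes *Cd3d*, *Cd3e* or *Cd3g*, or with more than 2 UMIs of the B cell genes *Cd79a*, *Cd79b* and *Ms4a1*, were left out. This rule chose 183 of 9300 cells, namely 43 of 2086 cells in Naïve, 75 of 2779 in ConA+Veh, 11 of 1880 in ConA+TCDD and 54 of 2555 in ConA+FICZ. Cells with at least 1 UMI of *Clec4g* or *Stab2*, receptors of the sinusoidal lining, were called sinusoidal endothelial cells (80 cells) and the remaining 103 other endothelial cells. The endothelial cells held 138680 UMIs in Naïve, 462988 in ConA+Veh, 103183 in ConA+TCDD and 285039 in ConA+FICZ. The libraries as a whole held 5952445, 19252211, 12077209 and 16017797 UMIs in the same order, which every list of 4 values below follows (Naïve, ConA+Veh, ConA+TCDD, ConA+FICZ). A gene's level was its summed UMIs per 1000000 UMIs of the cells in question (CPM), and ranges in brackets are exact 95% intervals, which cover counting error only and neither mice nor libraries.

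The walls of the liver sinusoids are lined by a special endothelium with open pores and no continuous basement membrane. Its cells remove waste molecules, immune complexes and modified proteins from portal blood through scavenger and Fc receptors, and they send Wnt and BMP signals that zone the hepatocytes and control iron uptake. Endothelium of larger veins and arteries lacks most of these receptors and carries von Willebrand factor and P-selectin. In hepatitis driven by T cells, endothelial cells are among the first to meet activated lymphocytes, to which they show adhesion molecules and the interferon-induced chemokines CXCL9 and CXCL10.

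The label was checked on 20 endothelial genes that the rule did not use. The median endothelial cell held 11 of the 20 in Naïve and 7 in each ConA library, where the median over all cells of each library was 0. Their summed level was 15662 CPM in Naïve, 5257 in ConA+Veh, 3547 in ConA+TCDD and 6543 in ConA+FICZ, against 149, 80.6, 45.8 and 41.6 CPM in the remaining cells of those libraries. All 20 genes were detected in the endothelial cells of every library. Among genes outside the rule, *Rspo3*, a Wnt enhancer of central veins, *Gpr182*, a chemokine-scavenging receptor, *Mmrn2*, a matrix protein of endothelium, the transcription factor *Sox7* and *Tek*, the angiopoietin receptor TIE2, stood furthest above the remaining cells. The smallest log2 ratio of the 4 libraries was 8.94 for *Rspo3*, 8.09 for *Gpr182*, 8.00 for *Mmrn2*, 7.86 for *Sox7* and 7.86 for *Tek*. These ratios describe the selection, since the cells were chosen by endothelial RNA.

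Not every chosen cell carried a clean endothelial profile. Of 7 genes found in nearly all leukocytes (*Ptprc*, *Coro1a*, *Laptm5*, *Cd53*, *Rac2*, *Arhgdib* and *Cd52*), at least 5 were detected in 1 cell of Naïve, 11 of ConA+Veh, 3 of ConA+TCDD and 6 of ConA+FICZ. These 21 cells, called leukocyte-gene cells below, had between 2291 and 73479 UMIs, 19 of them more than the median endothelial cell of their library, and held 12.4%, 46.8%, 68.8% and 42.4% of the endothelial UMIs of the 4 libraries. Their median count of outside endothelial genes was 14, 1, 0 and 3 of 20. Without them 42, 64, 8 and 48 cells remained. The 20 outside endothelial genes then summed to 17327, 9562, 11050 and 9859 CPM, so ConA+TCDD was the lowest library only with all cells. Levels below are over all endothelial cells unless stated otherwise, and the main ones are also given without the leukocyte-gene cells. The summed level of the leukocyte genes was 822 CPM in Naïve, 1955 in ConA+Veh, 2500.4 in ConA+TCDD and 1894 in ConA+FICZ in all endothelial cells. It was 436, 430.0, 404 and 378 CPM without the leukocyte-gene cells, and between 4392 and 6360.4 CPM in the remaining cells of the libraries.

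**Figure D1:**
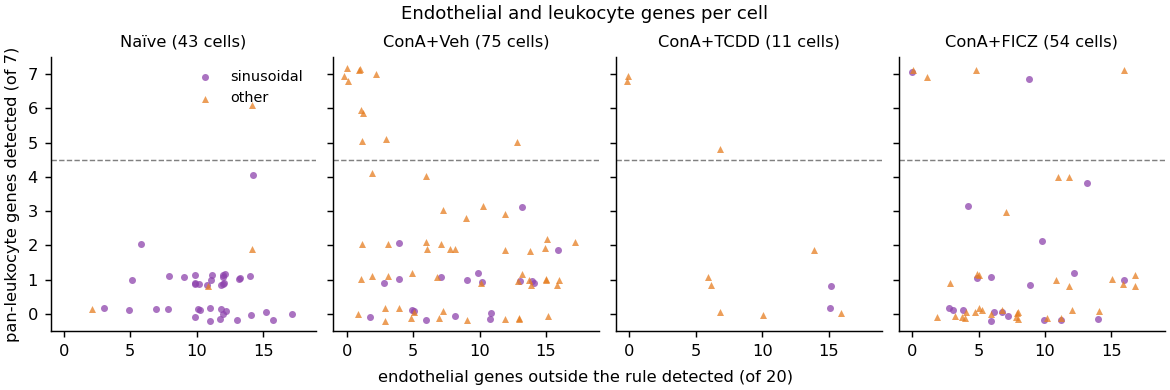
Each point is 1 endothelial cell (circles, sinusoidal; triangles, other), placed by the number of 20 endothelial genes outside the rule that had a UMI (horizontal axis) and of 7 pan-leukocyte genes (vertical axis), with 1 panel per library and points shifted slightly so that they do not hide each other. Above the dashed line lie the 21 leukocyte-gene cells, of which 1, 11, 3 and 6 came from the libraries in the order of the panels.

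The edge of the rule lay close to the leukocytes in the ConA libraries. Exactly 3 rule genes were found in 1, 15, 2 and 7 of the chosen cells of the 4 libraries, of which 0, 9, 2 and 3 were leukocyte-gene cells. A further 4, 37, 15 and 23 cells passed the limits on T and B cell UMIs with exactly 2 rule genes and fell just outside. The median number of rule genes per chosen cell was 10, 6, 5 and 6 of 11. Those limits removed 2, 17, 2 and 4 cells that had 3 or more rule genes. No doublet caller was run, so apart from those limits cells captured together with an endothelial cell were kept. Over all pairs of libraries 45 cell barcodes were shared, and 1 barcode of the endothelial cells occurred in both ConA+Veh and ConA+FICZ.

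Among the 4 other endothelial cells of Naïve, 2 large cells stood apart. The first held 17481 UMIs, all 222 Naïve UMIs of *Ccl21a* and all 36 of *Mmrn1*, genes of lymphatic vessels, and 5 of the 8 UMIs of *Prox1*, the transcription factor that sets lymphatic identity. *Pdpn*, another lymphatic gene, was at 0 UMIs in Naïve, and 1 further endothelial cell, in ConA+FICZ, had 3 or more lymphatic genes. The other large cell was the leukocyte-gene cell of Naïve. It held 17138 UMIs, 14 of the 20 outside endothelial genes, 28 of the 33 Naïve UMIs of *Vwf* and 347 of the 350 of *Cd74*, the invariant chain of MHC class II. In a library of 43 endothelial cells, levels of *Vwf*, of MHC class II and of lymphatic genes thus stood on single cells.

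Endothelial cells were 2.06% (1.496 to 2.77%) of the Naïve library, 2.70% (2.13 to 3.37%) of ConA+Veh, 0.585% (0.292 to 1.04%) of ConA+TCDD and 2.11% (1.59 to 2.75%) of ConA+FICZ. The intervals of Naïve, ConA+Veh and ConA+FICZ overlapped, and ConA+TCDD lay below all 3. Of the endothelial cells, 39 of 43 in Naïve had a UMI of *Clec4g* or *Stab2*, which is 90.7% (77.9 to 97.4%). In ConA+Veh it was 19 of 75, or 25.3% (15.99 to 36.7%), in ConA+TCDD 2 of 11, or 18.2% (2.28 to 51.8%), and in ConA+FICZ 20 of 54, or 37.0% (24.3 to 51.3%). The Naïve interval lay above the intervals of the ConA libraries, which overlapped each other. With at least 2 UMIs of the 2 genes required, the share was 88.4% in Naïve, 8.00% in ConA+Veh, 9.09% in ConA+TCDD and 18.5% in ConA+FICZ, and with cells thinned to 1000 UMIs it was 85%, 15.7%, 14.3% and 16.7%. Under both the ConA shares were lower than with 1 UMI, and the Naïve share was above them.

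As a share of all cells, sinusoidal cells were 1.87% of Naïve, 0.684% of ConA+Veh, 0.106% of ConA+TCDD and 0.783% of ConA+FICZ, and other endothelial cells were 0.192%, 2.02%, 0.479% and 1.33%. Once the leukocyte-gene cells were left out the sinusoidal share of the endothelial cells was 92.9%, 29.7%, 25% and 37.5%. *Clec4g*, a lectin receptor of sinusoidal cells, had 367 UMIs in Naïve, 2 in ConA+Veh, 0 in ConA+TCDD and 3 in ConA+FICZ, found in 36, 2, 0 and 3 cells. *Stab2*, the hyaluronan-clearing receptor stabilin-2, had 199 UMIs in Naïve, 32 in ConA+Veh, 11 in ConA+TCDD and 33 in ConA+FICZ. Both genes defined the class, so their levels are only a description, and a loss of sinusoidal cells cannot be told apart from less *Clec4g* and *Stab2* RNA in cells that stayed. Shares are relative to all captured cells, so a smaller endothelial share cannot be told apart from more cells of other types.

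**Figure D2:**
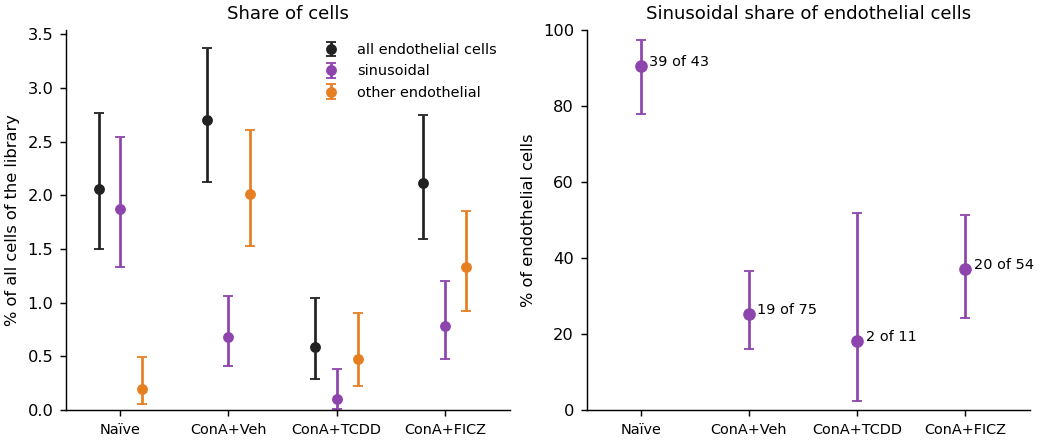
The left panel gives the percent of all cells of each library that were endothelial, sinusoidal endothelial or other endothelial, and the right panel the percent of endothelial cells that were sinusoidal, both with exact 95% binomial intervals. The sinusoidal share was 90.7% in Naïve and between 18.2% and 37.0% in the ConA libraries, while the endothelial share of all cells stood apart only in ConA+TCDD at 0.585%.

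Most of the scavenger and sinusoidal genes that the rule did not use were lower in ConA+Veh than in Naïve. *Mrc1*, the mannose receptor that takes up glycoproteins and collagen fragments, was at 1002 CPM (843 to 1183) in Naïve, 17.3 (7.46 to 34.05) in ConA+Veh, 48.5 (15.7 to 113) in ConA+TCDD and 42.1 (21.8 to 73.5) in ConA+FICZ. *Dnase1l3*, a secreted nuclease that digests DNA on particles, was at 1976 CPM (1749 to 2224) in Naïve, 69.1 (47.3 to 97.6) in ConA+Veh, 329.5 (228 to 460.5) in ConA+TCDD and 189 (142 to 247) in ConA+FICZ. *Fcgr2b*, the inhibitory Fc receptor that clears small immune complexes, was at 1774 CPM (1559 to 2010.0) in Naïve, 102 (74.6 to 135) in ConA+Veh, 165 (96.0 to 264) in ConA+TCDD and 312 (251 to 384) in ConA+FICZ. For all 3 genes the Naïve interval lay above those of every ConA library. On the log2 scale ConA+Veh differed from Naïve by -5.86 (-7.10 to -4.84) for *Mrc1*, -4.84 (-5.41 to -4.31) for *Dnase1l3* and -4.13 (-4.61 to -3.67) for *Fcgr2b*. Without the leukocyte-gene cells these were -5.14, -4.21 and -3.67.

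A gene was counted as higher or lower when its level differed at least 2-fold and it had at least 20 UMIs in the 2 libraries together. Between ConA+Veh and Naïve 4591 genes had enough UMIs, of which 20.1% were higher and 17.4% lower in ConA+Veh. Without the leukocyte-gene cells 3116 genes had enough, and 13.8% were higher and 13.9% lower. Against that background, of 19 sinusoidal genes outside the rule 17 were measured well enough, 15 were lower and 0 higher, with a median log2 ratio of -2.995, where the median over all genes was 0.07. With the leukocyte-gene cells left out 14 of 17 were lower, and the median was -2.27. The remaining members of the list included *Bmp2*, *Gpr182*, *Maf*, *Gata4*, *Stab1* and *Lyve1*. *Gpr182* was at 1154 CPM in Naïve, 145 in ConA+Veh, 145 in ConA+TCDD and 347 in ConA+FICZ, *Stab1*, the partner of stabilin-2, at 1421 CPM in Naïve, 253 in ConA+Veh, 145 in ConA+TCDD and 323 in ConA+FICZ, and *Ehd3*, a factor of endocytic recycling, at 2207 CPM in Naïve, 268 in ConA+Veh, 58.1 in ConA+TCDD and 186 in ConA+FICZ. Leaving out the leukocyte-gene cells put *Gpr182* at 1275, 264, 466 and 542 CPM, *Stab1* at 1596, 454, 404 and 506 CPM and *Ehd3* at 2501, 499, 186 and 256 CPM. Of the 14 scavenger and endocytic receptors, which share *Mrc1*, *Fcgr2b*, *Stab1* and *Lyve1* with that list, 7 of 8 measured were lower and 0 higher, with the rule genes *Clec4g* and *Stab2* among those counted. With both left out of the list 5 of 6 were lower, and 5 of 6 without the leukocyte-gene cells.

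*Lyve1*, the hyaluronan receptor shared by sinusoidal and lymphatic endothelium, differed less between ConA+Veh and Naïve than *Mrc1*, *Dnase1l3* and *Fcgr2b*. It was at 584 CPM in Naïve, 505 in ConA+Veh, 446 in ConA+TCDD and 481 in ConA+FICZ, and at 666, 884, 1366 and 810.4 CPM without the leukocyte-gene cells. On the log2 scale it differed from Naïve by -0.21 (-0.58 to 0.17) in ConA+Veh, and by 0.41 (0.03 to 0.79) without the leukocyte-gene cells. With all cells the interval held 0, and without those cells ConA+Veh was above Naïve by less than 2-fold.

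The same direction was seen inside the sinusoidal class, which holds only cells with a UMI of *Clec4g* or *Stab2*. *Clec4g* was found in 36 Naïve and 2 ConA+Veh cells, and *Stab2* in 37 and 17. Most ConA+Veh cells of the class had only 1 UMI of these genes, and nearly all Naïve cells had more. The class thus does not hold sinusoidal identity equal between the libraries. Here 39 Naïve and 19 ConA+Veh cells were compared, with 99795 and 46509 UMIs, and 11.9% of 1332 genes were higher and 17.0% lower. *Mrc1* differed by -4.02 (-5.91 to -2.63), *Dnase1l3* by -3.29 (-4.21 to -2.49), *Fcgr2b* by -2.19 (-2.84 to -1.59), *Gpr182* by -3.85 (-5.50 to -2.60) and *Ehd3* by -2.94 (-3.72 to -2.26). *Stab1*, at -0.77 (-1.29 to -0.28), had an interval that reached closer to 0. Of 17 sinusoidal genes 10 were lower and 0 higher, with a median of -1.59. *Lyve1* differed by 0.65 (-0.03 to 1.30).

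The rule genes, whose levels are given as a description since they chose the cells, were mostly lower in ConA+Veh. Their count was 7 of 11 lower, at a median of -2.54, and 7 of 11 without the leukocyte-gene cells, at -1.87. Of all genes 17.4% and 13.9% were lower, and nothing is read from a count over genes that chose the cells. *Kdr*, the VEGF receptor VEGFR2, was at 1334 CPM in Naïve, 229 in ConA+Veh, 136 in ConA+TCDD and 259.6 in ConA+FICZ, and *Eng*, a co-receptor of BMP9, at 2084 CPM in Naïve, 477 in ConA+Veh, 233 in ConA+TCDD and 614 in ConA+FICZ. They were at 1514, 414, 372 and 433 CPM and at 2139, 803, 652 and 896 CPM with those cells left out. *Cdh5*, the junction protein VE-cadherin and a rule gene, was at 772 CPM in Naïve, 456 in ConA+Veh, 368 in ConA+TCDD and 537 in ConA+FICZ and without the leukocyte-gene cells at 847, 824, 1148 and 859 CPM. *Pecam1*, the junction protein CD31 and also a rule gene, was at 541 CPM in Naïve, 328 in ConA+Veh, 184 in ConA+TCDD and 417 in ConA+FICZ, and at 568, 536, 466 and 652 CPM without those cells. *Mmrn2*, which the rule did not use, was at 461 CPM in Naïve, 272 in ConA+Veh, 174 in ConA+TCDD and 319 in ConA+FICZ, and at 518, 495, 559 and 512 CPM without those cells. For *Mmrn2* the log2 ratio of ConA+Veh to Naïve was -0.76 (-1.21 to -0.30) in all endothelial cells and -0.07 (-0.52 to 0.40) without the leukocyte-gene cells, where the interval held 0.

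Of the 20 endothelial genes outside the rule, 9 of 18 measured were lower in ConA+Veh and 0 higher, and without the leukocyte-gene cells 5 were lower and 1 higher of 18, where 17.4% and 13.9% of all genes were lower. *Igfbp7*, which encodes a secreted binding protein for growth factors, was the most abundant of these genes in Naïve, where *Aqp1*, a water channel, led in the ConA libraries. *Igfbp7* was at 5949 CPM (5549.9 to 6369) in Naïve, 739 (662 to 821) in ConA+Veh, 349 (244 to 483) in ConA+TCDD and 828 (726 to 941) in ConA+FICZ, which puts ConA+Veh against Naïve at -3.01 (-3.20 to -2.83) on the log2 scale, and it remained low at -2.31 without the leukocyte-gene cells and -2.58 inside the sinusoidal class.

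**Figure D3:**
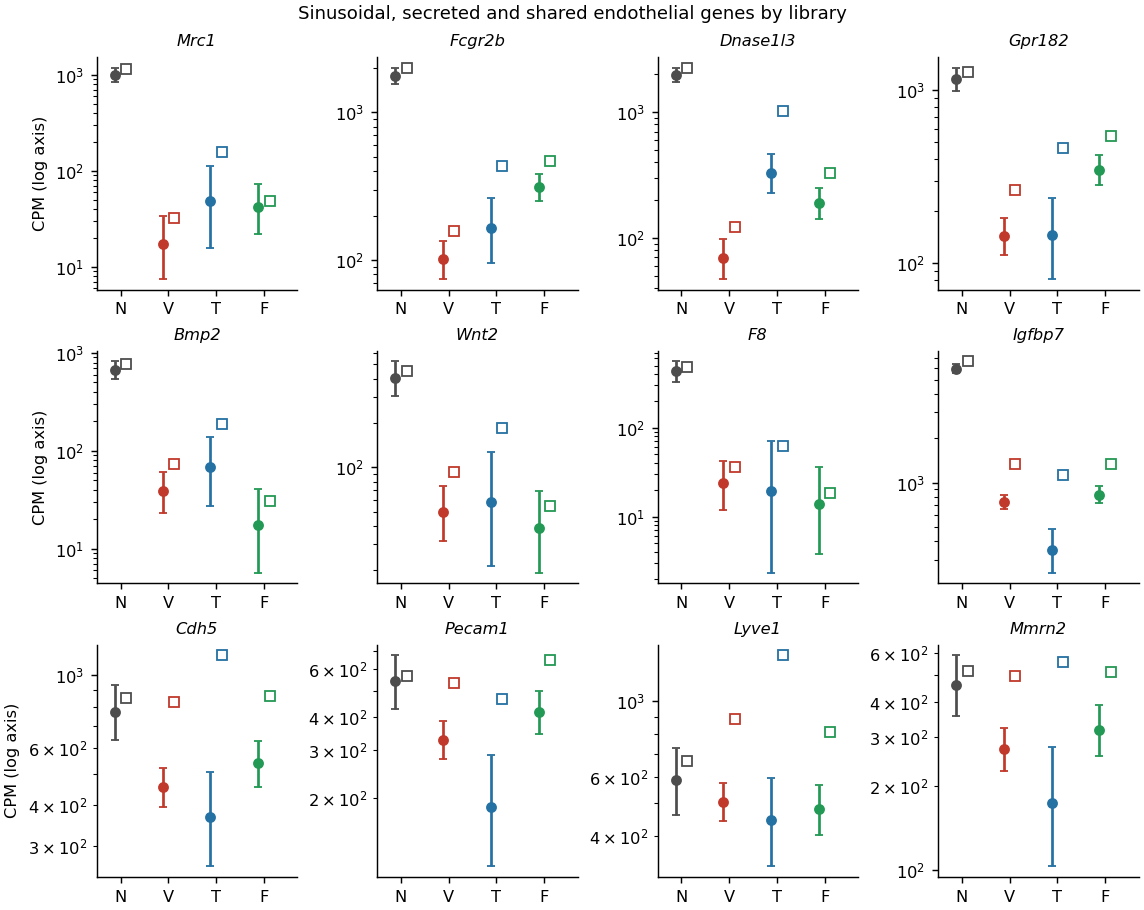
Level of 12 genes (CPM, log axis) in Naïve (N), ConA+Veh (V), ConA+TCDD (T) and ConA+FICZ (F), as filled circles with exact 95% Poisson intervals for all endothelial cells and as open squares without the leukocyte-gene cells. *Mrc1* lay at 1002 CPM in Naïve and at 17.3 to 48.5 CPM in the ConA libraries, and *Lyve1* with all cells between 446 and 584 CPM.

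*Bmp2* and *Wnt2*, signals sent by the sinusoidal lining to hepatocytes, were also low after ConA. *Bmp2*, a ligand that induces the iron hormone hepcidin in hepatocytes, was at 671 CPM (541 to 822) in Naïve, 38.9 (23.0 to 61.4) in ConA+Veh, 67.8 (27.3 to 139.8) in ConA+TCDD and 17.5 (5.70 to 40.9) in ConA+FICZ. *Wnt2*, a Wnt ligand of pericentral endothelium, was at 404 CPM (305 to 524) in Naïve, 49.7 (31.5 to 74.5) in ConA+Veh, 58.1 (21.3 to 127) in ConA+TCDD and 38.6 (19.3 to 69.1) in ConA+FICZ. Both were lower in every ConA library than in Naïve, with intervals that did not overlap that of Naïve. The log2 ratio of ConA+Veh to Naïve was -4.11 (-4.92 to -3.37) for *Bmp2* and -3.02 (-3.79 to -2.30) for *Wnt2*, and inside the sinusoidal class it was -3.10 (-4.76 to -1.83) and -2.68 (-4.61 to -1.24). *Rspo3*, which amplifies Wnt signals near the central vein, followed another course. It was at 469 CPM in Naïve, 380.1 in ConA+Veh, 48.5 in ConA+TCDD and 407 in ConA+FICZ, and without the leukocyte-gene cells ConA+Veh stood above Naïve by 1.35 (0.81 to 1.94). In Naïve the 4 other endothelial cells, 1 of them the leukocyte-gene cell, held 35 of the 65 *Rspo3* UMIs. The ratio of 1.35 thus depends in part on leaving out that cell. Of 14 angiocrine factors, 6 of 9 measured were lower and 0 higher, and without the leukocyte-gene cells 4 were lower and 2, *Wnt9b* and *Rspo3*, higher of 9. Over all genes 17.4% and 13.9% were lower and 20.1% and 13.8% higher.

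Among the receptors of the vascular growth factors, with the rule genes *Kdr* and *Eng* left out, 8 of 11 VEGF, Tie and Notch pathway genes measured were lower in ConA+Veh and 0 higher, and without the leukocyte-gene cells 4 of 11 were lower, against 17.4% and 13.9% of all genes. *Nrp1*, a co-receptor of VEGF and semaphorins, was at 707 CPM in Naïve, 90.7 in ConA+Veh, 38.8 in ConA+TCDD and 87.7 in ConA+FICZ, which puts ConA+Veh against Naïve at -2.96 (-3.52 to -2.43) on the log2 scale, or at -2.25 inside the sinusoidal class. *Flt1*, the decoy-like VEGF receptor VEGFR1, was at 541 CPM in Naïve, 272 in ConA+Veh, 204 in ConA+TCDD and 249 in ConA+FICZ, and without the leukocyte-gene cells its log2 ratio was -0.22 (-0.65 to 0.23). *Nrp1* was lower at least 2-fold in all cells, without the leukocyte-gene cells (-2.30) and inside the sinusoidal class, whereas *Flt1* was at 0.14 (-0.48 to 0.74) inside that class.

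Of the coagulation genes, *F8* stood lower in ConA+Veh than in Naïve and *Procr* higher. *F8*, factor VIII of the clotting cascade, which in the liver is made by sinusoidal endothelium, had 60 UMIs in Naïve, 11 in ConA+Veh, 2 in ConA+TCDD and 4 in ConA+FICZ, and stood at 433 CPM in Naïve against 23.8 CPM in ConA+Veh, a log2 ratio of -4.19 (-5.26 to -3.25). *Procr*, the endothelial receptor of protein C, had 0 UMIs in Naïve, which allows up to 21.6 CPM, 48 UMIs in ConA+Veh, 0 in ConA+TCDD and 36 in ConA+FICZ. Against that limit *Procr* was higher in ConA+Veh by a log2 ratio of at least 2.26. *Thbd*, thrombomodulin, which turns thrombin to the activation of protein C, was at 231 CPM in Naïve, 287 in ConA+Veh, 465 in ConA+TCDD and 365 in ConA+FICZ, and at 247, 539.6, 1489.9 and 609 CPM without the leukocyte-gene cells, and it differed from Naïve by 0.32 (-0.25 to 0.92) in ConA+Veh, by 1.13 (0.55 to 1.75) without the leukocyte-gene cells and by 1.99 (1.17 to 2.85) inside the sinusoidal class. Of 14 coagulation and fibrinolysis genes 8 were measured, with 2 higher and 3 lower, or 6 and 2 of 8 without the leukocyte-gene cells, where over all genes 20.1% were higher and 17.4% lower with all cells and 13.8% and 13.9% without those.

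Among the genes of larger vessels and of leukocyte adhesion, *Ly6c1*, *Ly6a* and *Vcam1* stood higher in ConA+Veh than in Naïve. *Ly6c1*, a surface protein of capillary and large vessel endothelium, had 0 UMIs in Naïve, which allows up to 21.6 CPM, and 246 CPM in ConA+Veh, 252 in ConA+TCDD and 674 in ConA+FICZ. The log2 ratio of ConA+Veh to Naïve was at least 3.51, and at least 2.98 inside the sinusoidal class. A single cell held 56 of the 114 ConA+Veh UMIs, and without it the ratio so computed was 2.57. *Ly6a*, the interferon-responsive stem cell antigen Sca-1, was at 1089 CPM (922 to 1277) in Naïve, 4609 (4416 to 4809) in ConA+Veh, 4691 (4282 to 5128) in ConA+TCDD and 6879.8 (6579 to 7191) in ConA+FICZ, with the Naïve interval below the others, and at 1242, 7095, 8381 and 9829 CPM without the leukocyte-gene cells. *Vcam1*, which binds integrins of rolling lymphocytes and monocytes, was at 123 CPM (71.4 to 196) in Naïve, 384 (330.1 to 445) in ConA+Veh, 136 (74.2 to 228) in ConA+TCDD and 249 (195 to 314) in ConA+FICZ. It differed between ConA+Veh and Naïve by 1.65 (0.93 to 2.46), by 2.93 (2.05 to 3.96) without the leukocyte-gene cells and by 1.59 (0.31 to 2.92) inside the sinusoidal class. Of 14 leukocyte adhesion molecules, which include the rule gene *Pecam1*, 4 of 11 measured were higher and 1 lower, at a median of -0.22, and 3 and 0 of 9 without the leukocyte-gene cells, at a median of 0.62. Over all genes 20.1% were higher and 17.4% lower with all cells, and 13.8% and 13.9% without those.

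*Selp*, which encodes P-selectin, stored in endothelial granules and brought to the surface to catch leukocytes, was at 64.9 CPM in Naïve, 186 in ConA+Veh, 48.5 in ConA+TCDD and 193 in ConA+FICZ, which puts ConA+Veh against Naïve at 1.52 (0.53 to 2.69) on the log2 scale. It was 2.08 (1.08 to 3.26) without the leukocyte-gene cells, and inside the sinusoidal class it was reversed at -1.07 (-4.32 to 1.20), where 1 Naïve cell held 8 of the 9 UMIs. *Vwf*, the carrier of factor VIII that tethers platelets, was at 238 CPM in Naïve, 90.7 in ConA+Veh, 9.69 in ConA+TCDD and 267 in ConA+FICZ. Its log2 ratio was -1.39 (-2.08 to -0.69) with all cells, 1.98 (0.64 to 3.68) without the leukocyte-gene cells, and 1.14 without the Naïve leukocyte-gene cell alone. For *Vwf* the direction was thus set by 1 cell. Of 18 large vessel genes, 6 of 16 measured were higher and 5 lower with all cells, and 8 of 14 higher and 1, *Ltbp4*, lower without the leukocyte-gene cells. The shares of all genes were 20.1% higher and 17.4% lower, and 13.8% and 13.9% without those cells. The share of other cells was higher in ConA+Veh, and its part in these levels was not tested.

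The interferon-induced chemokines *Cxcl9* and *Cxcl10* stood higher in ConA+Veh than in Naïve. *Cxcl9*, a chemokine that draws T cells carrying CXCR3 and is induced by interferon gamma, was at 411 CPM (311 to 533) in Naïve, 1397 (1292 to 1509) in ConA+Veh, 1366 (1150.3 to 1612) in ConA+TCDD and 1252 (1126 to 1389) in ConA+FICZ. *Cxcl10*, a second ligand of CXCR3, was at 151 CPM (93.7 to 231) in Naïve, 629 (558 to 705) in ConA+Veh, 1357 (1141 to 1601) in ConA+TCDD and 519 (439 to 609.9) in ConA+FICZ. For both chemokines the Naïve interval lay below the others. The log2 ratio of ConA+Veh to Naïve was 1.77 (1.37 to 2.18) for *Cxcl9* and 2.05 (1.41 to 2.77) for *Cxcl10*, and 2.39 and 2.28 without the leukocyte-gene cells. *Cxcl9* UMIs were found in 12 of 43, 47 of 75, 9 of 11 and 40 of 54 endothelial cells, and a few cells held a large part of them. In Naïve 2 cells held 20 and 15 of the 57 UMIs, in ConA+Veh 5 cells held 51 to 86 each of 647, in ConA+TCDD 2 cells held 50 and 33 of 141 and in ConA+FICZ 3 cells held 36 to 52 each of 357.

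With each cell thinned to 1000 UMIs, which left out cells with fewer, *Cxcl9* was found in 6 of 39 endothelial cells of Naïve, 31 of 68 of ConA+Veh, 8 of 11 of ConA+TCDD and 28 of 44 of ConA+FICZ. In the T and B lymphocytes of those libraries, a cell type that should lack it, the thinned share was 0.128%, 0.756%, 0.189% and 0.583%. The median UMI count was 2322, 3011, 4145 and 2374 in endothelial cells and 2246, 4974, 5252 and 5124 in lymphocytes. In each library the endothelial share of *Cxcl9* was above that of the lymphocytes. Thinned *Cxcl10* was found in 6 of 39, 33 of 68, 6 of 11 and 13 of 44 endothelial cells, against 0.319%, 2.50%, 2.84% and 2.19% of lymphocytes.

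The promoter of *Cxcl10* holds a match to the interferon-stimulated response element, a sequence through which interferons act, and is shown because this gene stood higher in every ConA library. It is the 250 bases before the transcription start (RefSeq, GRCm38.p6, chr5:92348890-92349139, minus strand), with the match in capitals, which is GAAA, any 2 bases and GAAA again, and whose first base lies 213 bases before the start.
Cxcl10: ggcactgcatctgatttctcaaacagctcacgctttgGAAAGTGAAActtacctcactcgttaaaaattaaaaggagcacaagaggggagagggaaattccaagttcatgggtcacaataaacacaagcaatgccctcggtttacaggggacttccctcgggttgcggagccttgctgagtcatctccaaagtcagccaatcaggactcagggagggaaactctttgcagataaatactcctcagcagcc
Of 32851 mouse promoters of this length 978, or 2.98%, held this element on either strand. A match describes the letters only and no bound factor.

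Of 19 interferon gamma-induced chemokines and GTPases, 4 of 16 measured were higher in ConA+Veh than in Naïve and 0 lower, with a median of 0.37, a share close to the 20.1% of all genes. With the leukocyte-gene cells left out 5 of 16 were higher and 0 lower, at a median of 0.70, where 13.8% of all genes were higher. Inside the sinusoidal class, where 11.9% of all genes were higher, 8 of 10 were higher and 1 lower, with a median of 1.80. *Gbp2* and *Gbp4*, guanylate-binding proteins that act against microbes in the cytosol, differed there by 2.30 (1.44 to 3.21) and 2.25 (1.30 to 3.27).

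Among the genes induced mainly by type I interferon, *Isg15* and *Irf7* stood higher in ConA+Veh than in Naïve. *Isg15*, a ubiquitin-like modifier, was at 180.3 CPM (117 to 266) in Naïve, 1151 (1056 to 1253) in ConA+Veh, 426 (309.8 to 572) in ConA+TCDD and 1088 (969.9 to 1216) in ConA+FICZ, and *Irf7*, which amplifies interferon production, at 79.3 CPM in Naïve, 274 in ConA+Veh, 155 in ConA+TCDD and 399.9 in ConA+FICZ. For ConA+Veh against Naïve the log2 ratio was 2.67 (2.097 to 3.32) for *Isg15* and 1.79 (0.90 to 2.83) for *Irf7*, and 2.69 and 2.60 without the leukocyte-gene cells. Of 16 genes, 8 of 15 measured were higher and 0 lower with all cells, and 10 of 15 were higher without the leukocyte-gene cells, at medians of 1.05 and 1.37, where 20.1% and 13.8% of all genes were higher. *Ubd*, the interferon-inducible protein modifier FAT10, had 0 UMIs in Naïve, which allows up to 21.6 CPM, and 104 UMIs in 20 ConA+Veh cells, a log2 ratio of at least 3.38.

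**Figure D4:**
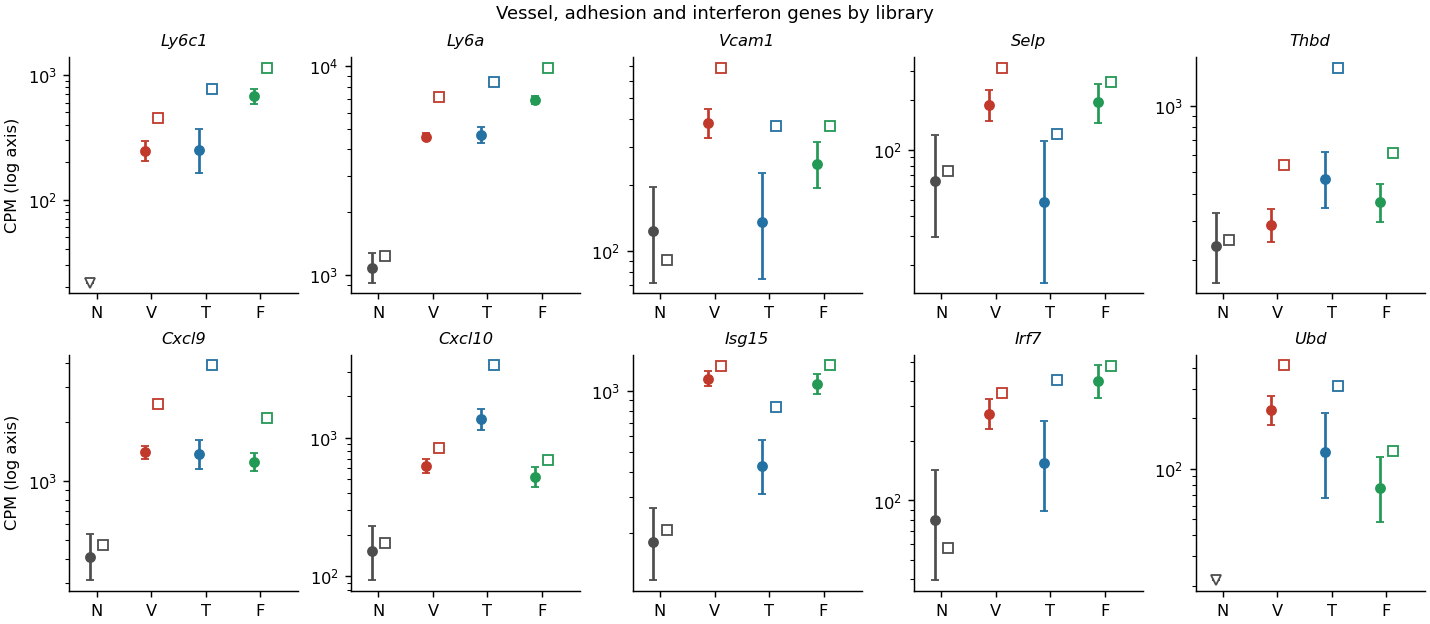
Level of 10 genes (CPM, log axis) in Naïve (N), ConA+Veh (V), ConA+TCDD (T) and ConA+FICZ (F) endothelial cells, with symbols and intervals as in the plot of sinusoidal genes; an open triangle pointing down marks the level that 0 UMIs allow (3 counts). *Cxcl9* lay at 411 CPM in Naïve and at 1252 to 1397 CPM in the ConA libraries, and *Ly6c1* had 0 UMIs in Naïve.

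Genes of antigen presentation were counted in the same way. For MHC class I, whose members load peptides for CD8 T cells, 2 of 12 genes measured were higher in ConA+Veh and 0 lower, and 3 of 11 were higher without the leukocyte-gene cells, against 20.1% and 13.8% over all genes. For MHC class II the summed level was 5235 CPM in Naïve, 1216 in ConA+Veh, 1754 in ConA+TCDD and 831 in ConA+FICZ, and 57.6, 183, 31.0 and 561 CPM without the leukocyte-gene cells. The Naïve level with all cells came almost wholly from the leukocyte-gene cell, so the difference between Naïve and ConA+Veh rested on it, and without such cells ConA+Veh was the higher.

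Genes of metabolism and protein folding were read against the 20.1% of all genes that were higher in ConA+Veh, or 13.8% without the leukocyte-gene cells. Of 14 glycolysis genes, 11 of 13 measured were higher in ConA+Veh than in Naïve and 0 lower, and 8 of 12 without the leukocyte-gene cells, with *Aldoa*, the glycolytic enzyme aldolase A, at 274 CPM in Naïve, 1212 in ConA+Veh, 1076 in ConA+TCDD and 1193 in ConA+FICZ. Of 12 heat shock proteins, 7 of 12 were higher and 0 lower, and 7 of 12 were higher without the leukocyte-gene cells. Glycolysis genes summed to 2791 CPM in Naïve and 7886 in ConA+Veh in endothelial cells, and to 3987 and 7762 CPM in the remaining cells. Heat shock proteins summed to 5603 and 16426 CPM, and to 6367 and 13119 CPM in the remaining cells. Both lists were thus higher in the remaining cells of ConA+Veh too. *Hspa5*, the chaperone BiP of the endoplasmic reticulum, was at 353 CPM (261 to 467) in Naïve, 1324 (1221 to 1433) in ConA+Veh, 1512 (1284 to 1769) in ConA+TCDD and 916 (808 to 1034) in ConA+FICZ, and *Cdkn1a*, a cell cycle inhibitor and target of p53, at 202 CPM (134 to 292) in Naïve, 674 (601 to 753) in ConA+Veh, 494 (368 to 649.9) in ConA+TCDD and 586 (500.4 to 682) in ConA+FICZ. Both lay above the Naïve interval in each ConA library. With the leukocyte-gene cells left out *Hspa5* was at 337, 1602, 2142 and 1060.3 CPM and *Cdkn1a* at 230.4, 1034, 1304 and 823 CPM. Their log2 ratios for ConA+Veh against Naïve were 1.91 and 1.74, and 2.39 and 2.31 inside the sinusoidal class.

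Of the cell cycle genes 9 of 13 measured were higher in ConA+Veh with all cells, and without the leukocyte-gene cells 3 had enough UMIs and 0 were higher. The cell cycle RNA thus sat with the leukocyte-gene cells. Among the immediate early genes of the activating protein 1 family, 1 of 12 was higher and 0 lower, and 3 and 0 of 12 without those cells, against the same backgrounds.

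Ranked by the interval bound nearer to 0, the 12 genes furthest below Naïve in ConA+Veh were *Ccl21a*, *Mrc1*, *Dpp4*, *Apoe*, *Dnase1l3*, *Selenop*, *Ltbp4*, *Cd300lg*, *Fcgr2b*, *Dbp*, *Bmp2* and *Adam23*, and all 12 were lower by at least 2-fold without the leukocyte-gene cells too. *Apoe*, the lipoprotein component apolipoprotein E, was at 2834 CPM in Naïve, 104 in ConA+Veh, 136 in ConA+TCDD and 410.5 in ConA+FICZ, *Selenop*, the selenium carrier, at 6584 CPM in Naïve, 349.9 in ConA+Veh, 194 in ConA+TCDD and 375 in ConA+FICZ, *Dpp4*, a peptidase of the cell surface, at 346 CPM in Naïve, 4.32 in ConA+Veh, 38.8 in ConA+TCDD and 10.5 in ConA+FICZ, and *Cd300lg*, a glycoprotein of capillary endothelium, at 433 CPM in Naïve, against 13.0 in ConA+Veh, 0 UMIs in ConA+TCDD, which allows up to 29.1 CPM, and 3.51 CPM in ConA+FICZ. Leaving out the leukocyte-gene cells put *Apoe* at 3019.5, 138, 155 and 530.1 CPM and *Selenop* at 7413, 621, 559 and 585 CPM. All *Ccl21a* UMIs of Naïve came from the cell with lymphatic genes. Inside the sinusoidal class *Apoe* differed by -4.06 (-5.13 to -3.16) and *Selenop* by -3.78 (-4.39 to -3.23).

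The 12 genes furthest above were *Prtn3*, *Plac8*, *Spp1*, *Chil3*, *Ctsg*, *Ctsc*, *Ifitm1*, *Ly6c1*, *Ly6c2*, *Ubd*, *Cxcl2* and *C1qbp*. Without the leukocyte-gene cells 7 of the 12 had at least 20 UMIs in both libraries together, and all 7 stood higher by at least 2-fold. *Prtn3*, a protease of granulocyte precursors, had 433 UMIs in ConA+Veh, of which 2 remained without those cells. The 12 furthest above without them were *Ly6c1*, *Ubd*, *Plac8*, *Spp1*, *Mgp*, *Npy*, *Serpina3n*, *Sprr2b*, *Zbp1*, *Lrg1*, *Clu* and *Procr*. Among these *Zbp1*, a sensor of nucleic acids in the Z form, was at 8.23, 361, 186 and 249.8 CPM, *Lrg1*, a secreted glycoprotein of inflamed vessels, at 24.7, 552, 155 and 707 CPM, and *Clu*, the secreted chaperone clusterin, at 8.23, 259.6, 0 and 384 CPM in the 4 libraries. *Mgp*, the matrix Gla protein that blocks calcification, rested on few cells, with 73 UMIs in 3 ConA+Veh cells.

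The ConA+TCDD library held 11 endothelial cells, 2 of them sinusoidal, and 3 of the 11 were leukocyte-gene cells that held 68.8% of the UMIs. Between ConA+TCDD and ConA+Veh 4145 genes had enough UMIs, of which 4.10% were higher and 15.1% lower in ConA+TCDD. Without the leukocyte-gene cells 2350 genes had enough, and 7.36% were higher and 15.4% lower. The comparison shares the ConA+Veh library with those of Naïve and of ConA+FICZ.

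*Mt1* and *Mt2*, metallothioneins that bind zinc and copper and are induced by metals, glucocorticoids and oxidants, were higher in ConA+TCDD. *Mt1* was at 1738 CPM (1525 to 1972) in Naïve, 806 (726 to 892) in ConA+Veh, 2723 (2414 to 3061) in ConA+TCDD and 2589 (2406 to 2783) in ConA+FICZ, and *Mt2* at 303 CPM (218 to 409) in Naïve, 270.0 (225 to 322) in ConA+Veh, 969 (789 to 1179) in ConA+TCDD and 961 (851 to 1082) in ConA+FICZ. The ConA+FICZ level was likewise above ConA+Veh. For ConA+TCDD against ConA+Veh the log2 ratio was 1.76 (1.53 to 1.98) for *Mt1* and 1.84 (1.45 to 2.23) for *Mt2*. A single cell held 164 of the 281 *Mt1* UMIs and 54 of the 100 *Mt2* UMIs, and without it the ratios were 0.60 and 0.83. With the leukocyte-gene cells left out instead, they were 2.59 and 2.51. In the remaining cells too, ConA+TCDD and ConA+FICZ stood above ConA+Veh, with *Mt1* at 152, 224, 569.8 and 685 CPM and *Mt2* at 23.2, 25.7, 112 and 81.7 CPM in the 4 libraries.

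*Cyp1a1*, a cytochrome P450 that is the classic target gene of AhR, had 0 UMIs in Naïve, 0 in ConA+Veh, 14 in ConA+TCDD and 63 in ConA+FICZ, found in 0, 0, 2 and 6 cells. The 0 UMIs allow up to 21.6 CPM in Naïve and 6.48 CPM in ConA+Veh, against 136 CPM in ConA+TCDD and 221 CPM in ConA+FICZ, so that *Cyp1a1* was higher than in ConA+Veh by a log2 ratio of at least 4.39 and at least 5.09. In the remaining cells of the libraries *Cyp1a1* was at 4.13, 0.106, 0.251 and 2.61 CPM. Endothelial *Cyp1a1* RNA was thus found in the libraries given an AhR ligand, in few cells. In ConA+TCDD 1 sinusoidal cell held 13 of the 14 UMIs, and in ConA+FICZ 1 cell held 20 of 63.

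Other genes tied to AhR were sparse. *Cyp1b1*, a related cytochrome, had 1 UMI in Naïve, 16 in ConA+Veh, 0 in ConA+TCDD and 22 in ConA+FICZ. *Tiparp*, a feedback inhibitor of AhR, had 2 UMIs in Naïve, 22 in ConA+Veh, 7 in ConA+TCDD and 18 in ConA+FICZ, and *Ahr* itself had 20 UMIs in Naïve, 20 in ConA+Veh, 6 in ConA+TCDD and 8 in ConA+FICZ. *Ahrr*, the AhR repressor, had 0 UMIs in the endothelial cells of all 4 libraries. Against ConA+Veh *Tiparp* differed by 0.51 (-0.96 to 1.79) in ConA+TCDD and by 0.41 (-0.57 to 1.38) in ConA+FICZ, so a difference was not detectable at this depth. *Ahr* was lower in ConA+Veh than in Naïve by -1.74 (-2.71 to -0.77), and by -0.63 (-1.76 to 0.53) without the leukocyte-gene cells, where the interval held 0.

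The promoters of *Cyp1a1*, *Mt1* and *Mt2* are shown because these genes are known targets of AhR and of metal signals and were above ConA+Veh in both libraries given a ligand. Each is the 250 bases before the start (RefSeq, GRCm38.p6, plus strand), for *Cyp1a1* at chr9:57697363-57697612, for *Mt1* at chr8:94178839-94179088 and for *Mt2* at chr8:94172368-94172617. Capitals mark GCGTG, the core of the AhR response element, in *Cyp1a1*, and TGCACNC or TGCGCNC, the core of the metal response element, in *Mt1* and *Mt2*.
Cyp1a1: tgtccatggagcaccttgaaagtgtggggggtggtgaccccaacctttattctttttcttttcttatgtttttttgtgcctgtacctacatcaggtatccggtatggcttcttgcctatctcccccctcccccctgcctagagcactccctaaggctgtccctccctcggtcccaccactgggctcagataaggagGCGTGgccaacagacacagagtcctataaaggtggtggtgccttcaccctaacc
Mt1: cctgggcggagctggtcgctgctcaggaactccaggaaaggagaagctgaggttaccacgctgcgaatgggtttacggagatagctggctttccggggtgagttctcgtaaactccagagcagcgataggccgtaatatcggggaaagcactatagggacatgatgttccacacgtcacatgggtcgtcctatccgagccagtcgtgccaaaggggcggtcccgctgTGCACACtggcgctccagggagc
Mt2: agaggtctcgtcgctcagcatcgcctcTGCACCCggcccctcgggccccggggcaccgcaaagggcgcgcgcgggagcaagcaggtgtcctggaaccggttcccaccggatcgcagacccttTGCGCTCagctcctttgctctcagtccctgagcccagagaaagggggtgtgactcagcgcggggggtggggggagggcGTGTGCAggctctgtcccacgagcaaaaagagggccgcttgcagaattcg
The GCGTG of *Cyp1a1* begins 54 bases before the start. In *Mt1* the match TGCACAC begins 23 bases before the start, in *Mt2* the match TGCACCC begins 223 bases before it, a second match, TGCGCTC, begins at 128, and GTGTGCA, which is the element on the reverse strand, at 50. Both strands were searched. GCGTG occurred in 9250 of 32851 promoters, or 28.2%, and once each in those of *Mt1*, *Mt2* and *Cxcl10*, and TGCACNC or TGCGCNC in 7032, or 21.4%.

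Of 19 sinusoidal genes 15 were measured in this comparison, of which 2 were higher and 2 lower in ConA+TCDD, at a median of 0.15, and 5 and 1 of 15 without the leukocyte-gene cells, at 0.75. *Ehd3* was the lowest of them, at -2.20 (-3.68 to -1.04), or -1.42 (-2.90 to -0.26) without those cells, and *Stab1* was at -0.80 (-1.68 to -0.02) and -0.17 (-1.12 to 0.66). *Dnase1l3*, the highest of them, was above ConA+Veh by 2.25 (1.51 to 2.996), and by 3.07 (2.32 to 3.84) without the leukocyte-gene cells, though 329.5 CPM was still below the 1976 CPM of Naïve. *Cxcl10* was higher by 1.11 (0.81 to 1.41), by 1.98 (1.63 to 2.33) without those cells and by 0.75 without the cell that held 33 of its 140 UMIs, while *Vcam1* was at -1.503 (-2.40 to -0.72) and -0.89 (-1.87 to -0.05). Of 18 large vessel genes 8 of 14 measured were lower and 0 higher, and 6 and 1 of 13 without the leukocyte-gene cells. *Rspo3* had 5 UMIs in ConA+TCDD against 176 in ConA+Veh, a log2 ratio of -2.97 (-4.61 to -1.72), or -2.16 (-3.80 to -0.91) without those cells. For the interferon gamma genes the counts were 1 higher and 2 lower of 16 with all cells, at a median of -0.47, and 2 and 1 of 16 without the leukocyte-gene cells, at a median of 0.01. For the type I genes they were 0 higher and 4 lower of 15, at a median of -0.75, and 3 and 1 of 15 without those cells, at 0.13. The shares over all genes were 4.10% and 15.1% with all cells and 7.36% and 15.4% without them. *Isg15* differed by -1.43 (-1.91 to -0.99), and by -0.66 (-1.29 to -0.09) without the leukocyte-gene cells.

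By rank, the genes furthest above ConA+Veh in ConA+TCDD were *Elane*, *Mt1*, *Dnase1l3*, *Mt2*, *Ifitm1*, *Seh1l*, *Wfdc17*, *Lpl*, *Cxcl2*, *Pnn*, *Ccr2* and *Slc7a11*, and those furthest below were *Chil3*, *Igfbp5*, *Btg2*, *Ifi27l2a*, *Mgp*, *Clu*, *Lcn2*, *Cd200*, *Gstm1*, *Sprr2b*, *Rspo3* and *Tsc22d1*. Of the 12 furthest above, 6 had at least 20 UMIs in both libraries together without the leukocyte-gene cells, and 4 of these, *Mt1*, *Dnase1l3*, *Mt2* and *Cxcl2*, were then still higher by at least 2-fold. *Ifitm1*, an interferon-induced membrane protein, turned from 1.66 to -3.17, with 1 UMI in ConA+TCDD against 69 in ConA+Veh, and *Pnn* went from 1.84 to 0.20. *Elane*, *Lpl*, *Ccr2* and *Slc7a11* had 0 UMIs in ConA+TCDD once those cells were left out and *Wfdc17* had 1, so their place in the ranking rested on the leukocyte-gene cells. *Elane*, neutrophil elastase, belongs to granulocyte precursors. Of the 12 furthest below, 11 had enough UMIs without those cells and 10 were still lower by at least 2-fold, with most of them at 0 UMIs in ConA+TCDD. *Cxcl2*, a chemokine for neutrophils, had 78 of its 119 UMIs in 1 cell, and without that cell its log2 ratio went from 1.43 to -0.08. *Igfbp5*, a secreted binding protein of insulin-like growth factors, had all 96 of its ConA+Veh UMIs in 1 cell. *Clu* had 0 UMIs in ConA+TCDD, which allows up to 29.1 CPM, against 140.4 CPM in ConA+Veh.

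The ConA+FICZ library held 54 endothelial cells, and fewer genes passed 2-fold against ConA+Veh than between ConA+Veh and Naïve. Of 5219 genes with enough UMIs 5.75% were higher and 4.56% lower in ConA+FICZ, and without the leukocyte-gene cells 4.91% and 4.43% of 3340. The sinusoidal genes *Fcgr2b*, *Dnase1l3* and *Gpr182* lay between ConA+Veh and Naïve. *Fcgr2b* was higher than in ConA+Veh by 1.62 (1.10 to 2.16), *Dnase1l3* by 1.45 (0.80 to 2.13) and *Gpr182* by 1.26 (0.80 to 1.73), and without the leukocyte-gene cells by 1.57, 1.43 and 1.04. Of 19 sinusoidal genes 6 of 17 measured were higher and 1 lower. Inside the sinusoidal class, with 19 and 20 cells and with 11.3% of 1119 genes higher and 10.4% lower, 2 of 12 were higher and 2 lower, at a median of 0.07. Of those 20 cells of ConA+FICZ, 2 were leukocyte-gene cells, of 18321 and 15389 UMIs. Without them 4 of 11 sinusoidal genes were higher and 0 lower, at a median of 0.60, where 9.03% of 808 genes were higher and 5.82% lower. With all cells of the class *Fcgr2b* was at 538 CPM in ConA+Veh and 749 CPM in ConA+FICZ. In the same order *Dnase1l3* was at 279.5 and 479 CPM and *Gpr182* at 108 and 467 CPM. *Fcgr2b* and *Dnase1l3* were thus less than 2-fold apart there, but more than 2-fold without the leukocyte-gene cells. The sinusoidal share was 37.0% in ConA+FICZ and 25.3% in ConA+Veh with overlapping intervals, and 16.7% and 15.7% after thinning to 1000 UMIs, and its part in the levels over all endothelial cells was not tested.

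*Ly6c1* was higher in ConA+FICZ than in ConA+Veh by 1.45 (1.11 to 1.80), and *Mt1* and *Mt2* by 1.68 (1.503 to 1.87) and 1.83 (1.52 to 2.149). Without the cell that held most of its UMIs *Ly6c1* was at 0.73. Inside the sinusoidal class *Ly6c1* was at 237 CPM in ConA+Veh and 258 CPM in ConA+FICZ, less than 2-fold apart. Of the 738 *Mt1* UMIs of ConA+FICZ, 183 came from 1 leukocyte-gene cell. Inside the sinusoidal class *Mt2* was at -0.24 (-0.86 to 0.41), with an interval that held 0. Against backgrounds of 5.75% higher and 4.56% lower, the interferon gamma list had 2 of 17 genes higher and 0 lower, and the type I list 1 of 15 and 0. Without the leukocyte-gene cells, where 4.91% and 4.43% of all genes were called, the counts were 1 higher and 0 lower of 17, and 0 and 0 of 15. *Cxcl9* differed by -0.16 (-0.35 to 0.03) and *Cxcl10* by -0.28 (-0.57 to 0.01).

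**Figure D5:**
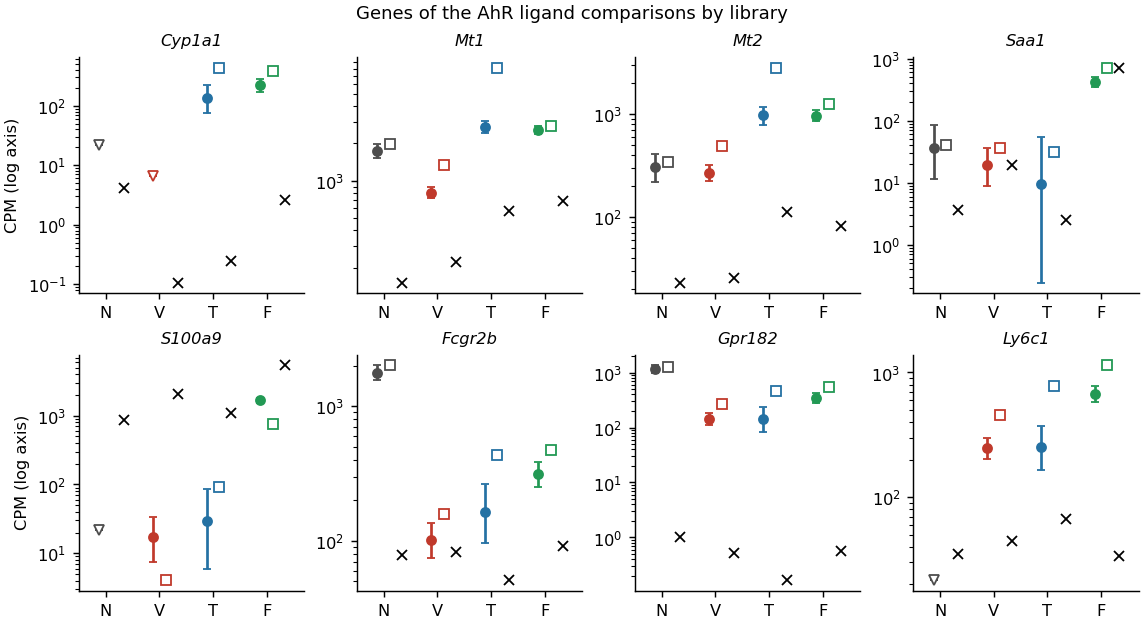
Level of 8 genes (CPM, log axis) in Naïve (N), ConA+Veh (V), ConA+TCDD (T) and ConA+FICZ (F), with symbols and intervals as in the plot of sinusoidal genes, the level that 0 UMIs allow as an open triangle, and the remaining cells of each library as crosses. *Cyp1a1* had UMIs in the endothelial cells of ConA+TCDD (136 CPM) and ConA+FICZ (221 CPM), and in ConA+FICZ the remaining cells were also high in *Saa1* (706 CPM) and *S100a9* (5388 CPM).

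Of the 12 genes furthest above ConA+Veh in ConA+FICZ, 11 are known from other cell types, and *Cyp1a1* ranked second. The 12 genes furthest above ConA+Veh were *S100a9*, *Cyp1a1*, *S100a8*, *Saa1*, *Saa2*, *Hamp*, *Ngp*, *Retnlg*, *Orm1*, *Hpx*, *Fgg* and *Fga*. *Saa1* and *Saa2*, acute phase serum amyloids, *Hamp*, hepcidin, and the plasma proteins *Orm1*, *Hpx*, *Fgg* and *Fga* are made by hepatocytes, and *S100a8*, *S100a9*, *Ngp* and *Retnlg* by neutrophils. *Saa1* was at 36.1 CPM in Naïve, 19.4 in ConA+Veh, 9.69 in ConA+TCDD and 421 in ConA+FICZ in endothelial cells and at 3.61, 19.4, 2.51 and 706 CPM in the remaining cells. *S100a9* had 0 UMIs in endothelial cells of Naïve, which allows up to 21.6 CPM, was at 17.3 CPM in ConA+Veh, 29.1 in ConA+TCDD and 1680.5 in ConA+FICZ, and was at 868, 2065, 1112 and 5388 CPM in the remaining cells. One sinusoidal cell of 3506 UMIs held 97 of the 120 *Saa1* UMIs and 104 of the 126 of *Saa2*, and 1 leukocyte-gene cell held 353 of the 479 of *S100a9*. Without those cells the log2 ratio to ConA+Veh was 2.07 for *Saa1* and 4.72 for *S100a9*, from 4.44 and 6.60 with them. Over all 12 hepatocyte markers the summed level was 93.7 CPM in Naïve, 117 in ConA+Veh, 116 in ConA+TCDD and 1091 in ConA+FICZ in endothelial cells and 351, 182, 28.6 and 2491 CPM in the remaining cells, and for the 8 neutrophil markers 180.3, 812, 213 and 4880.0 CPM against 1833, 4342, 2187 and 11230.1 CPM. Detected in the endothelial cells of ConA+FICZ were 11 of the 12 hepatocyte markers, led by *Alb* at 232 CPM, and 8 of the 8 neutrophil markers, led by *S100a9*. The part of hepatocyte and neutrophil RNA in the endothelial values was not tested. The genes furthest below ConA+Veh were *Igfbp5*, *Klk1*, *Ly6d*, *Dmkn*, *Mpo*, *Serpinb1a*, *Ephx1*, *Spp1*, *Nkg7*, *Ube2c*, *Nts* and *Pf4*. Without the leukocyte-gene cells 5 of these 12 had at least 20 UMIs in both libraries together, and all 5 stayed lower by at least 2-fold.

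Markers of other cell types were summed in the endothelial cells and in the remaining cells of each library. The 12 T and NK cell markers summed to 14.4 CPM in Naïve, 177 in ConA+Veh, 116 in ConA+TCDD and 116 in ConA+FICZ in endothelial cells, against 4002 CPM or more in the remaining cells, and the rule set *Cd3d*, *Cd3e* and *Cd3g* to 0. The 12 markers of C1q-positive macrophages, such as Kupffer cells, summed to 57.7 CPM in Naïve, 428 in ConA+Veh, 388 in ConA+TCDD and 1351 in ConA+FICZ, against 263, 619, 117 and 764 CPM in the remaining cells. Without the leukocyte-gene cells they summed to 41.1, 48.7 and 30.5 CPM in Naïve, ConA+Veh and ConA+FICZ and had 0 UMIs in ConA+TCDD. In the ConA libraries macrophage RNA thus sat mainly in the leukocyte-gene cells. The 12 monocyte and dendritic markers summed to 526 CPM in Naïve, 3136 in ConA+Veh, 4206 in ConA+TCDD and 3929 in ConA+FICZ, and to 403, 803, 993 and 725 CPM without those cells, led by *Plac8* in the ConA libraries. In the remaining cells they summed to 2039, 2733, 1612 and 2586 CPM, so with all cells the endothelial level was the higher of the pair in each ConA library. The 12 stellate and fibroblast markers summed to 310.1 CPM in Naïve, 225 in ConA+Veh, 9.69 in ConA+TCDD and 154 in ConA+FICZ, led by *Ecm1*, against 102, 109.8, 99.9 and 93.0 CPM in the remaining cells. The part of any of these in the endothelial values was not tested.

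Sinusoidal and other endothelial cells were also compared with each other. Summed over the 4 libraries *Mrc1* had 655 CPM in sinusoidal against 10.6 CPM in other cells, *Dnase1l3* 1444 CPM in sinusoidal against 66.5 CPM in other cells, *Fcgr2b* 1435 CPM in sinusoidal against 75.8 CPM in other cells, and *Bmp2* 445 CPM in sinusoidal against 22.6 CPM in other cells. Since 39 of the 80 sinusoidal cells and 4 of the 103 others were from Naïve, these sums mix the cell class with the library. In ConA+FICZ alone, with 20 and 34 cells, *Dnase1l3* had 479 CPM in sinusoidal against 73.7 CPM in other cells, *Fcgr2b* 749 CPM in sinusoidal against 138 CPM in other cells, and *Mrc1* 98.3 CPM in sinusoidal against 19.6 CPM in other cells. Of the 19 sinusoidal genes 7 of 15 with at least 20 UMIs in both classes together were higher by at least 2-fold in the sinusoidal cells of ConA+FICZ and 0 lower, against 5.73% and 10.4% of all genes, and 6 and 0 of 13 without the leukocyte-gene cells, against 7.46% and 9.58%. *Stab1* had 332 CPM in sinusoidal against 319 CPM in other cells, and *Nr2f2*, a transcription factor of veins, 209 CPM in sinusoidal against 344 CPM in other cells. In ConA+Veh alone, with 19 and 56 cells, *Dnase1l3* had 279.5 CPM in sinusoidal against 45.6 CPM in other cells, and *Fcgr2b* 538 CPM in sinusoidal against 52.8 CPM in other cells. Here 9 of 13 sinusoidal genes were higher and 0 lower, against 15.4% and 19.2% of all genes, and 7 and 1 of 12 without the leukocyte-gene cells, against 8.46% and 11.9%. The lower one was *Gpr182*, with 5 UMIs in sinusoidal and 60 in other cells, a log2 ratio of -1.48 (-3.15 to -0.18). All 11 leukocyte-gene cells of ConA+Veh were among its other cells, and without them *Dnase1l3* had 279.5 CPM in sinusoidal against 85.0 CPM in other cells, and *Fcgr2b* 538 CPM in sinusoidal against 70.0 CPM in other cells. In ConA+FICZ, without its 6 such cells, *Dnase1l3* had 818 CPM in sinusoidal against 129 CPM in other cells, and *Fcgr2b* 1132 CPM in sinusoidal against 198 CPM in other cells. Over the 4 libraries together, the genes furthest above in the sinusoidal cells were *Mrc1*, *Dnase1l3*, *Fcgr2b*, *Dpp4*, *Cd300lg*, *Hamp*, *Bmp2*, *Saa2*, *Apoc3* and *Adam23*. The hepatocyte genes *Hamp*, *Saa2* and *Apoc3* were among the 10 without the leukocyte-gene cells too. In ConA+FICZ the 12 hepatocyte markers summed to 3341 CPM in sinusoidal against 192 CPM in other cells, and their part was not tested. The genes furthest below in the sinusoidal cells were *Ccl21a*, *Chil3*, *Mgp*, *Cd74*, *Serping1*, *Sprr2b*, *H2-Eb1*, *Igfbp5*, *H2-Ab1* and *S100a8*. Once the leukocyte-gene cells were left out they were *Ccl21a*, *Mgp*, *Serping1*, *Igfbp5*, *Spp1*, *Fxyd6*, *Sprr2b*, *Cd200*, *Serpina3n* and *Fstl1*, so that *Chil3*, *S100a8* and the MHC class II genes *Cd74*, *H2-Eb1* and *H2-Ab1* were no longer among the 10.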

How the data were processed

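Liver mononuclear cells from 4 conditions were measured by droplet scRNA-seq with a 5′ gene expression kit, 1 library each. Per the labels, the authors used bcl2fastq and Cell Ranger with the mouse build mm10. The deposited values are raw UMI counts per gene and cell, with no normalization, for 31053 features, and counts of features with the same symbol were summed. From these, UMIs of the endothelial cells were summed per library and gene and divided by all their UMIs (CPM). Levels have exact Poisson intervals, ratios and shares exact binomial intervals, all at 95%, for counting error only. A count of 0 was set to 3 for levels and ratios, and the exact interval bound of such a ratio can lie nearer to 0. No fold is given in the text where both counts were at or under 3. Genes with at least 20 UMIs in both libraries together were counted and called at 2-fold, and ratios of single genes with fewer UMIs are given as values. With 1 library per condition no p-value was computed. The named genes of each comparison were the 12 furthest above and 12 furthest below, ranked by the interval bound nearer to 0, leaving out immunoglobulin and T cell receptor segments, haemoglobin, mitochondrial and ribosomal protein genes, unnamed gene models and the rule genes. Members of the gene lists were ranked with all other genes, and some are named besides. The cells, genes and lists were chosen with earlier results of these data known, and the limit of 5 leukocyte genes was set after seeing the data. Detection was compared after thinning cells to 1000 UMIs. No doublet caller was run. Promoter sequences came from RefSeq. Statistics were computed with scipy 1.17.1 and numpy 2.4.6, tables with pandas 2.3.3 and plots with matplotlib 3.10.9, under Python 3.11.15, and were tested on simulated data.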

Additional observations from a re-analysis of the deposited data

How the results depend on the processing

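With 1 library per condition no library could be left out and none could be paired. No paired analysis was possible because each condition has 1 library. Of 704 values of 86 ratios of chosen genes under the alternatives, 487 stayed within the counting interval, 211 moved out of it and 6 were reversed, which means that a ratio of at least 2-fold changed sign. A limit on mitochondrial RNA and on genes per cell, and totals without ribosomal protein genes, moved none of the 86. Ratios under 2-fold that changed sign, such as *Rspo3* for ConA+Veh against Naïve (from -0.30 to 1.35 without the leukocyte-gene cells), are among those that moved. Outside the 86, *Ifitm1* for ConA+TCDD against ConA+Veh went from 1.66 to -3.17 without those cells. Of the 86, *Selp* for ConA+Veh against Naïve was reversed among sinusoidal cells alone (-1.07). *Vwf* in that comparison was reversed without the leukocyte-gene cells (1.98), as a mean over cells (0.48) and without the cell with most *Vwf* UMIs (1.14). *Cxcl2* for ConA+TCDD against ConA+Veh was reversed without the cell with most *Cxcl2* UMIs (-0.085). *Mt2* for ConA+FICZ against ConA+Veh was reversed among sinusoidal cells alone (-0.24). The cause was not tested beyond these settings.

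With 2 or more rule genes endothelial cells were 4.03% of ConA+Veh, 1.38% of ConA+TCDD and 3.01% of ConA+FICZ, and thinned to 1000 UMIs 2.06% of ConA+Veh. In Naïve 4 cells with exactly 2 rule genes joined the 43. The overlaps of the endothelial share intervals stated above apply to 3 or more rule genes and not to 2. With at least 2 UMIs of *Clec4g* and *Stab2* the sinusoidal share was 8.00% in ConA+Veh and 18.5% in ConA+FICZ, and thinned to 1000 UMIs 15.7% and 16.7%. The number of genes past 2-fold followed the cells and the UMI minimum. For ConA+Veh against Naïve 921 genes were higher, but 435 with 4 or more rule genes, 571 without cells with C1q or *Lyz2* UMIs, 158 in sinusoidal cells only, 430 without the leukocyte-gene cells and 446 at a minimum of 50 UMIs. The 800 lower genes became 413, 500, 227, 432 and 282 in the same order, and 1470 at a minimum of 10. For ConA+TCDD against ConA+Veh 170 were higher, but 459 as a mean over cells, 412 at a minimum of 10 and 39 at 50. The 626 lower became 363 with 4 or more rule genes, 363 without the leukocyte-gene cells, 1220 at a minimum of 10 and 159 at 50. For ConA+FICZ against ConA+Veh 300 were higher, but 127 in sinusoidal cells only, 164 without the leukocyte-gene cells, 494 as a mean over cells, 629 at a minimum of 10 and 76 at 50. The 238 lower became 116, 148, 655, 611 and 57 in the same order. Sinusoidal cells alone were not compared for ConA+TCDD (2 cells), nor other cells alone for Naïve (4 cells).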

Other observations

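Genes of transport and of the vessel wall not described above were compared between ConA+Veh and Naïve, where 20.1% of all genes were higher and 17.4% lower. Of the genes of caveolae, transport and junctions, 6 of 11 measured were lower and 1 higher, and without the leukocyte-gene cells 2 and 1 of 11. With all cells *Aqp1*, the water channel, was at 2545 CPM in Naïve, 927 in ConA+Veh, 746 in ConA+TCDD and 1252 in ConA+FICZ. Its lowest log2 ratio to the remaining cells of a library was 7.19, in ConA+TCDD. Without the leukocyte-gene cells the lowest was 8.82. The whole list summed to 6937, 2348, 1715 and 2961 CPM with all cells. Without those cells it summed to 7718, 4377, 5339 and 4046 CPM, so ConA+TCDD was lowest only with all cells. Of the genes of vascular tone and shear stress, 1 of 10 were higher and 2 lower, and of the matrix genes 2 and 4 of 13. When the leukocyte-gene cells were left out, where 13.8% and 13.9% of all genes were higher and lower, the counts were 2 and 0 of 9 and 2 and 1 of 12. In ConA+TCDD against ConA+Veh 6 of 9 tone genes were lower, where 15.1% of all genes were lower. Without the leukocyte-gene cells 3 of 9 were lower, where 15.4% of all genes were lower.

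Of the cell death and p53 target genes 3 of 11 were higher in ConA+Veh than in Naïve and 1 lower. Also higher were 3 of 6 NF-kB feedback genes and 6 of 10 genes of metallothioneins and oxidative stress. Over all genes 20.1% were higher and 17.4% lower. *Mt1* itself was at a log2 ratio of -1.11 (-1.35 to -0.87). Without the leukocyte-gene cells, where 13.8% of all genes were higher, *Mt1* was at -0.55 (-0.79 to -0.30), short of 2-fold, and the counts were 1 of 8, 2 of 4 and 4 of 9. Platelet and megakaryocyte markers summed to 332 CPM in Naïve, 324 in ConA+Veh, 174 in ConA+TCDD and 123 in ConA+FICZ in endothelial cells. In Naïve *Clec1b*, which is also a member of the sinusoidal list, made up 317 of the 332 CPM. *Clec1b* led in ConA+TCDD and ConA+FICZ too, whereas *Pf4*, a chemokine stored in platelets, led in ConA+Veh. There 1 cell held 74 of the 76 *Pf4* UMIs. *Spp1*, which encodes the secreted protein osteopontin, made up nearly all of the bile duct marker level of ConA+Veh, at 402 of 408 CPM, with 0 UMIs in Naïve. Red cell markers were at 0 UMIs in the endothelial cells of Naïve and ConA+FICZ. They were at 43.2 CPM in those of ConA+Veh and at 9.69 CPM in those of ConA+TCDD. In the remaining cells they were at 5985 CPM in Naïve, 2426 in ConA+Veh, 5516 in ConA+TCDD and 191 in ConA+FICZ.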
